A study of Mus musculus with 8 samples.

Results

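The genes described are the 6 coat genes of caveolae in the expression table: the caveolins Cav1, Cav2 and Cav3, and the cavins Ptrf, Sdpr and Prkcdbp, which are the older symbols of Cavin1, Cavin2 and Cavin3. They were taken by name as members of these families, 6 of the 23993 gene symbols in the table. All 6 were among the 12107 genes tested, those averaging 1 FPKM or more. By name FPKM are fragments per kilobase relative to mapped fragments, but how these libraries were scaled was not given. RNA was sequenced from the thoracic aorta of 8 C57BL/6 mice, all male and aged 24 weeks. The 4 Tsc1 knockout mice were Tsc1fl/fl with Myh11-CreERT2 and the mT/mG reporter, and the 4 control mice were Tsc1+/+ with the same Cre and reporter. Both groups received tamoxifen at 1.5 weeks. Myh11-CreERT2 is a tamoxifen-activated Cre recombinase driven by the smooth muscle myosin heavy chain promoter, mT/mG is a fluorescent reporter that switches colour after recombination, and Tsc1 encodes hamartin, a brake on the growth kinase mTORC1. Cells that do not use the Myh11 promoter keep Tsc1 in the knockout mice. The labels name smooth muscle cells, but the protocol describes crushed whole vessel and no sorting. None of the labels says that mice were pooled, and if the replicates were not separate animals, the p-values describe technical spread alone.

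Caveolae are small flask-shaped pits of the plasma membrane, rich in cholesterol and abundant in smooth muscle, endothelium and fat cells. Caveolins insert into the inner leaflet of the membrane and oligomerise there, and cavins assemble on them from the cytoplasm to form the outer coat. Caveolae flatten to take up membrane tension and gather receptors, ion channels and endothelial nitric oxide synthase, which caveolin-1 holds in check.

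In the Tsc1 knockout aortas 4 of the 6 genes fell: Cav3 and Cav1 among the caveolins, and Prkcdbp and Ptrf among the cavins. Mean FPKM in the knockouts was 35.4% of the control mean for Cav3, 52.7% for Prkcdbp, 55.3% for Cav1 and 72.3% for Ptrf. Cav2 stood at 74.8% and Sdpr at 93.5%, and neither passed the test. Genes were called with limma on log2(FPKM + 1) where the Benjamini-Hochberg adjusted p was below 0.05. Over all tested genes 15.0% were called lower and 17.1% higher in the knockouts. The median log2 difference, knockout minus control, was -0.69 over the 6 genes and 0.01 over all tested genes.

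In mm10 Cav2 (chromosome 6, 17281185 to 17289115) lies next to Cav1 (chromosome 6, 17306335 to 17341452) on the same strand, with 17219 bases between them. Cav3 is on the same chromosome at 112459505 to 112472872. Ptrf is on chromosome 11 (100956733 to 100970887, minus strand), Sdpr on chromosome 1 (51289126 to 51302960) and Prkcdbp on chromosome 7 (105480083 to 105482300, minus strand). The values cover whole genes, so the 10 annotated transcripts of Cav1, which include a long and a short form of the protein, are not separated.

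The promoter windows of 5 of the 6 genes are printed because 3 of these genes fell and 2 did not pass the test, so that their start sites can be set side by side. Each window runs from 250 bases before to 50 bases after a RefSeq start site (GRCm38.p6). Prkcdbp, which also fell, had no window among the promoter sequences used and is named only. Capitals mark GGGCGG or its reverse complement, the GC box bound by Sp1.
Cav1, chr6:17306085-17306384, plus strand: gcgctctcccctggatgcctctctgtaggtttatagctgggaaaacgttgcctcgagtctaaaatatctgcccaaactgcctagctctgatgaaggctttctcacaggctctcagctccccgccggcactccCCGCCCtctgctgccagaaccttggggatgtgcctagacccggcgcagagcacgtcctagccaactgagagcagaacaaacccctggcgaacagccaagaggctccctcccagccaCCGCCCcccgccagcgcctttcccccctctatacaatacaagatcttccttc
Cav2, chr6:17280935-17281234, plus strand: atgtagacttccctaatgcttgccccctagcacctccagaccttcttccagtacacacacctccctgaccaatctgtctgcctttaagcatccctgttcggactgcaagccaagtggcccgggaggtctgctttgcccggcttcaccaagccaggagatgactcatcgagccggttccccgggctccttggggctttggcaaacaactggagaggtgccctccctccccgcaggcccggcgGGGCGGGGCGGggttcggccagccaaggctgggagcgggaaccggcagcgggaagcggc
Cav3, chr6:112459255-112459554, plus strand: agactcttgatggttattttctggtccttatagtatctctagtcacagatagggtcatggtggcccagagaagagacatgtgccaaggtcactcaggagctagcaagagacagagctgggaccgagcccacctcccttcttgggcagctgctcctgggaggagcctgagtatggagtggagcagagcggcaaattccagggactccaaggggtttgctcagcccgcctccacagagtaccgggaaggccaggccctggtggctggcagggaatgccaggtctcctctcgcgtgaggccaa
Ptrf, chr11:100970568-100970867, minus strand: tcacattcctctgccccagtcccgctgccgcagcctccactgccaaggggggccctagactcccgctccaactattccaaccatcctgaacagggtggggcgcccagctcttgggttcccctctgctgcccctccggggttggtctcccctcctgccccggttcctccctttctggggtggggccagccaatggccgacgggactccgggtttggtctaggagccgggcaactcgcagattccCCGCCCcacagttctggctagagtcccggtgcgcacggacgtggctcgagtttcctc
Sdpr, chr1:51288876-51289175, plus strand: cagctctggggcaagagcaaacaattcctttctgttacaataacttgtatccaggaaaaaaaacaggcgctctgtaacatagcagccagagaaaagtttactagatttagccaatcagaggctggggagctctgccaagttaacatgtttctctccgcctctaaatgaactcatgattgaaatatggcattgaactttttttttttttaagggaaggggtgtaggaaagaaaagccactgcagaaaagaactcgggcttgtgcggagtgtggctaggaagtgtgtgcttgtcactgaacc
At least 1 GC box was present in the printed windows of Cav1, Cav2 and Ptrf and in 35.7% of all 32851 promoter windows. The Cav1 matches begin 118 and 2 bases before the start site, those of Cav2 9 and 4 bases before it, where they overlap by 1 base, and that of Ptrf 7 bases before it. The windows of Cav3 and Sdpr hold no GC box. The CArG box, the 10-base element bound by serum response factor, was searched on both strands and had no match in these 5 windows with up to 1 mismatch, against 21.1% of all windows, and an exact match occurs in 1.63% of all. CACGTG, the E-box read by MiT/TFE factors, had no match here and was found in 7.15% of all windows. The second Cav1 window, at the start site of another transcript, held none of these motifs, the GC box included. The second Ptrf window, shifted by 2 bases, held the GC box and no other of these motifs.

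Cav1 encodes caveolin-1, the protein without which non-muscle cells form no caveolae. Cav1 had 146, 266, 172 and 269.6 FPKM in knockouts 1 to 4, against 391, 367, 408 and 378 FPKM in controls 1 to 4. The controls lay close together, all 4 knockouts lay below them, and knockouts 1 and 3 were the lowest. Cav1 fell to 214 ± 63.9 FPKM in knockouts, against 386 ± 17.3 FPKM in controls (SD, n = 4 each; log2 difference -0.90, SE 0.19, limma adjusted p = 0.00743). Groups that did not overlap, with the knockouts lower, were seen for 4 of the 6 genes and for 15.6% of all tested genes. In bulk tissue, fewer cells of a type and less RNA per cell cannot be told apart.

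Cav2 encodes caveolin-2, which forms mixed oligomers with caveolin-1 and needs it to leave the Golgi. Cav2 had 34.7, 47.8, 35.8 and 59.8 FPKM in knockouts 1 to 4, and 60.1, 58.1, 52.9 and 67.2 FPKM in controls 1 to 4. Knockout 4 lay within the control range and the other knockouts lay below it. The means were 44.5 ± 11.8 FPKM in knockouts and 59.6 ± 5.94 FPKM in controls (SD, n = 4 each), a log2 difference of -0.44 (SE 0.17, 95% interval -0.82 to -0.06) that did not pass the test (limma adjusted p = 0.0727). Without knockout 4 it passed (log2 difference -0.59, limma adjusted p = 0.0126). With any other single library left out it did not (limma adjusted p from 0.0843 to 0.168).

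Cav3 encodes caveolin-3, the caveolin of skeletal and cardiac muscle, also made by some smooth muscle. It had 7.43, 14.0, 5.68 and 12.3 FPKM in knockouts 1 to 4, against 25.3, 30.5, 27.5 and 28.1 FPKM in controls 1 to 4. The highest knockout was well under the lowest control. Cav3 fell to 9.85 ± 3.93 FPKM in knockouts, against 27.9 ± 2.15 FPKM in controls (SD, n = 4 each; log2 difference -1.48, SE 0.23, limma adjusted p = 0.00177), and only 0.471% of tested genes had a lower log2 difference.

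Cav3 is also a gene of striated muscle, whose markers are given here beside it. The 18 striated muscle markers summed to 179.6, 94.1, 56.8 and 165 FPKM in knockouts 1 to 4, and to 55.4, 65.5, 60.0 and 348 FPKM in controls 1 to 4. Control 4, with the highest sum of all 8 libraries, had 28.1 FPKM of Cav3, within the range of the other controls. Knockout 1, with a higher marker sum than controls 1 to 3, had less Cav3 than each of them. These are single libraries, and the part of striated muscle cells in the Cav3 values was not tested. No marker was at 0 in all libraries, and of the 13 tested 1 rose and 3 fell, where 17.1% of all tested genes rose and 15.0% fell. Tnnt2, cardiac troponin T, rose (log2 difference 1.07) and Ckm, muscle creatine kinase, fell (log2 difference -1.93). The marker sums were unlike in make-up. Tnnt2 was most of the sum in knockouts 2, 3 and 4 (84.1, 45.6 and 94.9 FPKM) and in controls 1 to 3 (35.4, 39.1 and 31.1 FPKM). It had 86.1 FPKM in knockout 1 and 35.5 FPKM in control 4, where other markers together had more. Acta1 had 65.0 FPKM in control 4 and 0.722 FPKM or less elsewhere. Myh6 had 25.6 FPKM in knockout 1, 17.0 FPKM in knockout 4 and 1.58 FPKM or less elsewhere. Murc, the muscle cavin (cavin-4), ran from 0 to 0.161 FPKM in knockouts and from 0 to 0.304 FPKM in controls and was below the level tested.

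Ptrf encodes cavin-1, which every cavin complex contains and without which caveolae are lost. It had the highest FPKM of the family in each of the 8 libraries. Ptrf had 304, 368, 320.2 and 361 FPKM in knockouts 1 to 4, against 484, 447, 488 and 454 FPKM in controls 1 to 4. All 4 knockouts lay below all 4 controls. It fell to 338 ± 31.1 FPKM in knockouts, against 468 ± 20.7 FPKM in controls (SD, n = 4 each; log2 difference -0.47, SE 0.07, limma adjusted p = 0.00173).

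Prkcdbp encodes cavin-3, a partner of protein kinase C delta. It had 124, 168, 116 and 151 FPKM in knockouts 1 to 4, against 264, 265, 257 and 273 FPKM in controls 1 to 4. The controls differed little among themselves, with a coefficient of variation of 2.40%, against 17.2% among the knockouts, and the groups were far apart. Prkcdbp fell to 139.6 ± 24.0 FPKM in knockouts, against 265 ± 6.36 FPKM in controls (SD, n = 4 each; log2 difference -0.93, SE 0.11, limma adjusted p = 4.37e-04).

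Sdpr encodes cavin-2, a phosphatidylserine-binding cavin that helps to bend the membrane. It had 32.3, 35.2, 28.3 and 35.6 FPKM in knockouts 1 to 4, and 40.4, 35.3, 33.3 and 31.5 FPKM in controls 1 to 4. The groups overlapped: 3 knockouts lay within the control range, and knockout 3 lay below it. The means were 32.9 ± 3.38 FPKM in knockouts and 35.1 ± 3.87 FPKM in controls (SD, n = 4 each), and the log2 difference of -0.09 (95% interval -0.31 to 0.13, limma adjusted p = 0.497) did not pass the test.

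**Figure D1:**
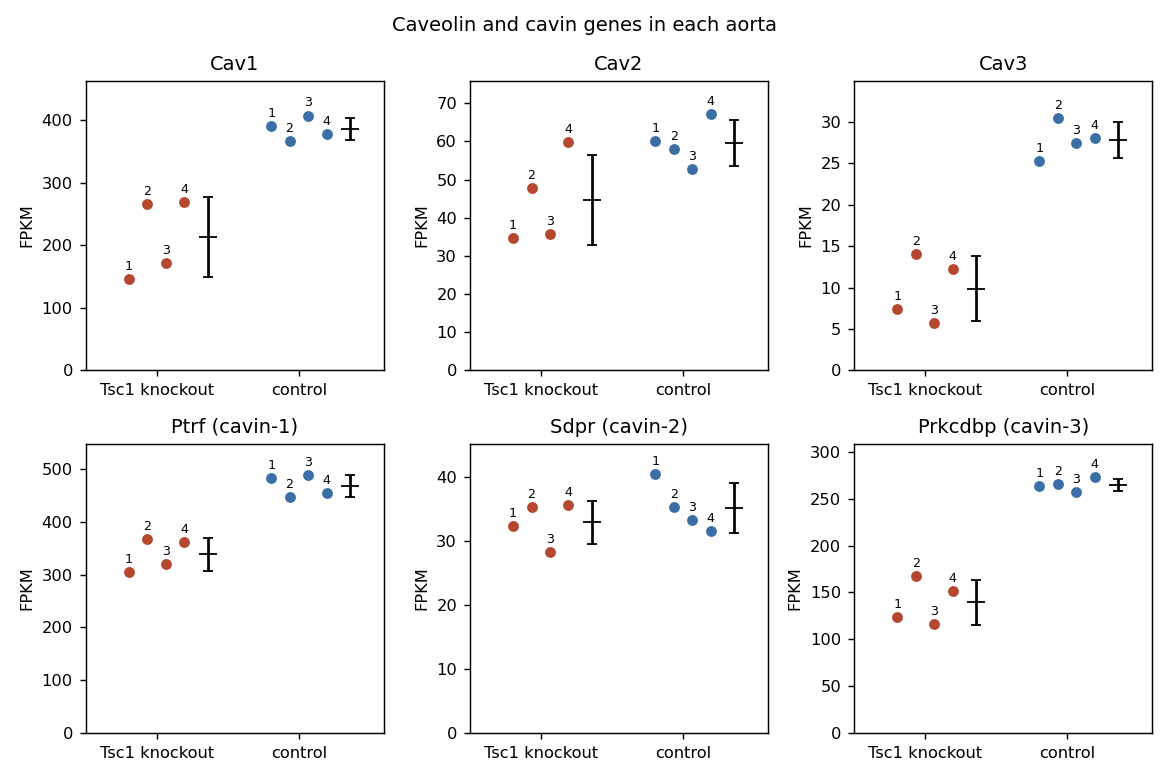
FPKM of each caveolin and cavin gene in each library, knockouts in red and controls in blue, numbered by replicate, with the mean and SD (n = 4) as a bar beside each group. The groups are apart for Cav1, Cav3, Ptrf and Prkcdbp, while knockout 4 lies among the controls for Cav2 and the groups overlap for Sdpr.

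By mean FPKM, a value per length of transcript, the order in the knockouts was Ptrf, Cav1, Prkcdbp, Cav2, Sdpr and Cav3, and the controls had the same order. Among tested genes Ptrf ranked 193 by mean FPKM in knockouts and 159 in controls, and Cav1 ranked 317 in knockouts and 188 in controls. In the knockouts Cav2 and Sdpr were neighbours whose libraries overlapped, from 34.7 to 59.8 FPKM for Cav2 and from 28.3 to 35.6 FPKM for Sdpr. In the controls Sdpr, at 31.5 to 40.4 FPKM, and Cav3, at 25.3 to 30.5 FPKM, were next to each other in this order, and their ranges did not overlap.

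The falls were unequal, so the make-up of the family differed between the groups. The 3 caveolins together had 268 ± 78.4 FPKM in knockouts and 474 ± 13.2 FPKM in controls, and the 3 cavins 511 ± 56.8 FPKM in knockouts and 768 ± 18.4 FPKM in controls (SD, n = 4 each). Of the summed caveolin FPKM, Cav2 made up 16.8% ± 1.66 in knockouts and 12.6% ± 1.38 in controls, and Cav3 made up 3.62% ± 0.698 in knockouts and 5.89% ± 0.593 in controls. Cav1 made up 79.6% ± 1.64 of that sum in knockouts and 81.5% ± 1.63 in controls, and the groups overlapped. Of the summed cavin FPKM, Prkcdbp made up 27.2% ± 1.80 in knockouts and 34.5% ± 1.45 in controls, Sdpr 6.45% ± 0.422 in knockouts and 4.57% ± 0.448 in controls, and Ptrf 66.4% ± 1.85 in knockouts and 60.9% ± 1.38 in controls.

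Ratios between genes of the same library are not altered by scaling each library by a single factor, and 4 of them were tested by two-sided exact permutation of the 70 assignments of libraries to groups. Each gave an exact permutation p = 0.0286, the smallest possible with 4 against 4, and 0.0286 after adjustment over the 4 ratios, and the groups did not overlap for any of them. The ratio of Prkcdbp to Ptrf was 0.411 ± 0.0382 in knockouts and 0.567 ± 0.0362 in controls (SD, n = 4 each; log2 difference -0.47, SE 0.08). Sdpr to Ptrf was 0.0972 ± 0.00735 in knockouts and 0.0750 ± 0.00751 in controls (log2 difference 0.38, SE 0.09). Set against Ptrf, Prkcdbp was thus lower and Sdpr higher in the knockouts.

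The other ratios set caveolin-2 and cavin-1 against caveolin-1. Cav2 to Cav1 was 0.212 ± 0.0249 in knockouts and 0.155 ± 0.0197 in controls (SD, n = 4 each; log2 difference 0.45, SE 0.13). Knockout 2, at 0.1795, was the lowest knockout and lay just above control 4, at 0.1777. Ptrf to Cav1 was 2.09, 1.38, 1.86 and 1.34 in knockouts 1 to 4, and 1.24, 1.22, 1.20 and 1.20 in controls 1 to 4, nearly constant in controls and spread in knockouts (log2 difference 0.43, SE 0.16). For both ratios the difference was larger among libraries 1 and 3 than among libraries 2 and 4: 0.66 and 0.25 on the log2 scale for Cav2 to Cav1, and 0.70 and 0.17 for Ptrf to Cav1.

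**Figure D2:**
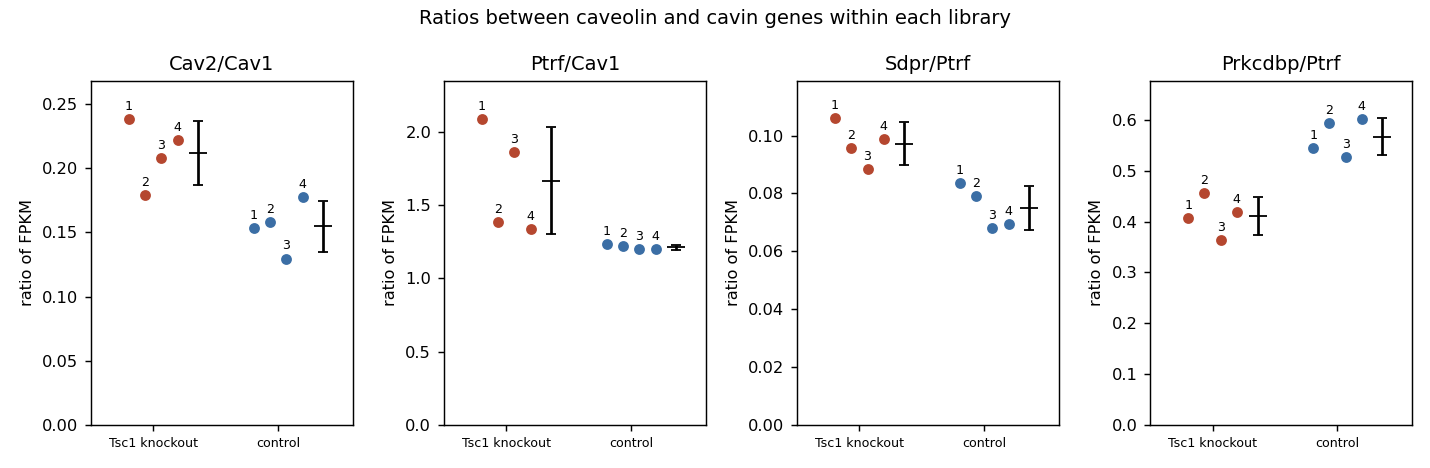
Ratio of FPKM between pairs of caveolin and cavin genes within each library, knockouts in red and controls in blue, numbered by replicate, with the mean and SD (n = 4). All 4 knockouts lie above the controls for Cav2/Cav1, Ptrf/Cav1 and Sdpr/Ptrf, and below them for Prkcdbp/Ptrf.

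The knockouts were not alike. For all 6 genes knockouts 1 and 3 both lay below knockouts 2 and 4, an order that 32.6% of tested genes showed in the knockouts. In the controls Cav3 and Prkcdbp had this order, Cav1 and Ptrf the opposite one, and Cav2 and Sdpr neither, where 30.0% of tested genes had this order and 22.0% the opposite one. The labels name no batch that divides odd from even replicate numbers. The division was chosen because earlier results of these same data showed it, so values and tests that rest on it describe these libraries and are no independent evidence. Between odd-numbered libraries the log2 difference of Cav1 was -1.33, and between even-numbered ones -0.47, with 2 knockouts and 2 controls each. The difference between these, -0.85 (SE 0.12), had a limma interaction adjusted p = 0.0217, and 1.62% of tested genes were called in that fit. For Cav3 the log2 differences were -1.87 among odd and -1.10 among even numbers (limma interaction adjusted p = 0.0825). They were -1.11 and -0.75 for Prkcdbp (limma interaction adjusted p = 0.135), and -0.64 and -0.30 for Ptrf (limma interaction adjusted p = 0.0918). The 4 genes that fell were called within each set alone. Of the 12107 tested genes, 1453 were called lower among odd-numbered libraries alone and 1494 among even-numbered ones.

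**Figure D3:**
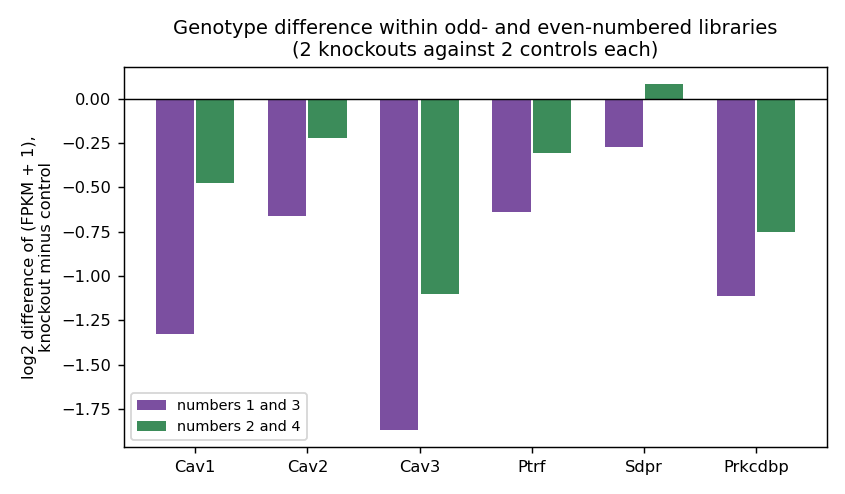
Log2 difference of (FPKM + 1), knockout minus control, of each caveolin and cavin gene among libraries numbered 1 and 3 (purple) and among libraries numbered 2 and 4 (green), 2 knockouts against 2 controls in each. The odd-numbered difference is the lower one for all 6 genes, and for Sdpr the even-numbered value is above 0.

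The summed levels of smooth muscle and of endothelial markers were lower in the knockouts too. The 12 smooth muscle markers summed to 15052, 20302, 15988 and 18856 FPKM in knockouts 1 to 4. In controls they summed to between 23023 and 23662 FPKM. Of the 12, 7 fell and 5 did not pass, where 15.0% of all tested genes were called lower. Among them Cnn1, calponin, had a log2 difference of -1.10 and Des, desmin, of -0.87. In the interaction of genotype with odd or even number 2 of the 12 were called, against 1.62% of all tested genes. Acta2, Tagln and Myl9 held most of the sum. Knockout means of single smooth muscle markers ran from 47.5% of the control mean for Cnn1 to 99.5% for Mylk. The 17 endothelial markers summed to 197, 261, 198 and 264 FPKM in knockouts 1 to 4. In controls they summed to between 349 and 447 FPKM. Of the 16 tested, 13 fell and 3 did not pass, against the same 15.0% of all tested genes called lower. Cldn5, a tight junction protein, had a log2 difference of -1.11, and Nos3, the endothelial nitric oxide synthase that caveolin-1 binds, of -1.02. No marker of either list was at 0 in all libraries, and the part of these cells in the caveolin and cavin values was not tested.

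**Figure D4:**
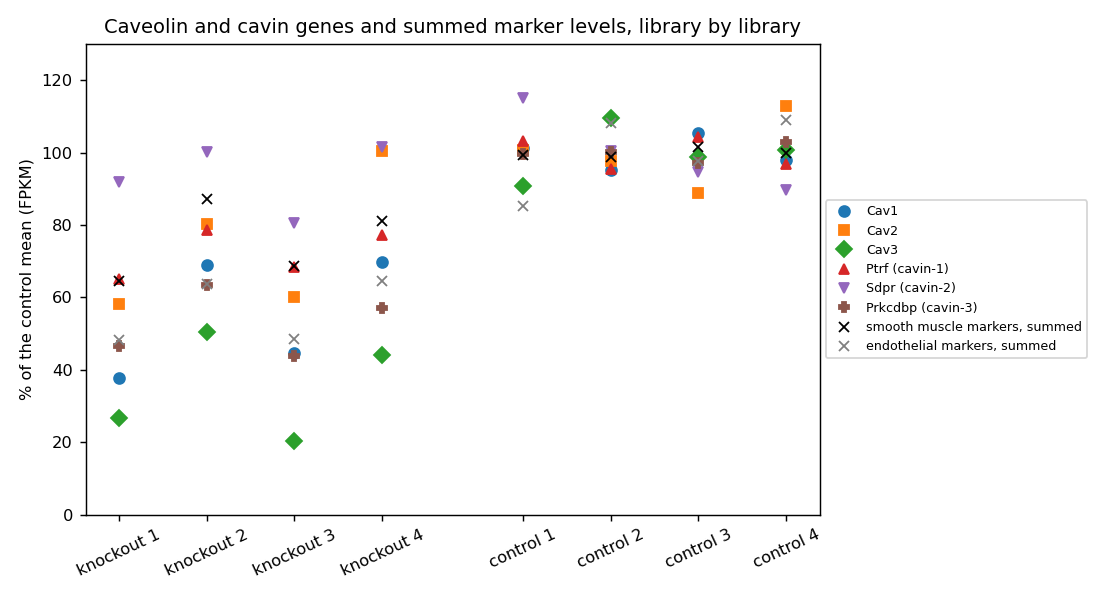
FPKM of each caveolin and cavin gene, and the summed FPKM of smooth muscle and of endothelial markers, in each library as a percent of the control mean. In the knockouts Cav3 runs from 20.4% to 50.3% and Prkcdbp from 43.9% to 63.3%, with knockouts 1 and 3 the lowest, against 64.7% to 87.2% for the smooth muscle sum and 48.1% to 64.5% for the endothelial sum. Cav1 (37.7% to 69.8%), Ptrf (65.0% to 78.6%), Cav2 (58.3% to 100.4%) and Sdpr (80.6% to 101.5%) overlap the smooth muscle range, though Cav1 lies below the smooth muscle sum in each knockout. Cav3, Prkcdbp, Cav1 and Cav2 overlap the endothelial range, and Ptrf and Sdpr lie above it. Library by library, Cav3 and Prkcdbp lie below the endothelial sum in each knockout and Cav2 lies above it. Cav1 lies below that sum in knockouts 1 and 3 and above it in knockouts 2 and 4.

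Fat cells are the other caveola-rich cell type of this tissue. Their 12 markers summed to between 316 and 756 FPKM in knockouts and between 411 and 1328 FPKM in controls, and the sums overlapped. Of 11 tested, 1 fell, where 15.0% of all tested genes did: Retn, resistin (log2 difference -1.03). Control 1 had the highest fat cell sum, and its Cav1, at 391 FPKM, lay between controls 3 and 4. This is a single library, and the part of fat cells in the caveolin and cavin values was not tested. Of 9 fibroblast markers 5 fell, among them Ly6c1 (log2 difference -1.21), a surface protein that endothelial cells also make, and Pi16 (-1.08), while 4 did not pass, Pdgfra (0.26), Lum (0.38) and Col14a1 (0.34) with positive log2 differences and Dpt (-0.26). The 9 markers summed to 847 to 1203 FPKM in knockouts and 1180 to 1571 FPKM in controls. Of 7 macrophage markers limma called 0, and 0 had an unadjusted p under 0.05, with sums of 179 to 242 FPKM in knockouts and 211 to 297 FPKM in controls.

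Among 14 proteins that shape, anchor or signal at caveolae, 12 were tested, of which 4 fell, 3 rose and 5 did not pass, with a median log2 difference of -0.08. Over all tested genes 15.0% were called lower and 17.1% higher. The Ehd genes encode membrane-bending ATPases, of which Ehd2 sits at the neck of the caveola and holds it at the surface. Ehd2 had 121, 137, 124 and 139 FPKM in knockouts 1 to 4, against 189, 189, 195 and 194 FPKM in controls 1 to 4. The groups were apart, and Ehd2 fell (log2 difference -0.55, SE 0.06, limma adjusted p = 2.76e-04). Ehd1 also fell (-0.46), a call lost among even-numbered libraries alone (-0.43), while Ehd4 rose to 83.9 ± 7.44 FPKM in knockouts, against 59.9 ± 3.98 FPKM in controls (SD, n = 4 each; log2 difference 0.48, limma adjusted p = 0.00207). Ehd3 did not pass (log2 difference -0.03).

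Pacsin2, an F-BAR protein that bends membrane at caveolae, rose to 87.7 ± 12.7 FPKM in knockouts, against 66.6 ± 3.23 FPKM in controls (SD, n = 4 each; log2 difference 0.38, limma adjusted p = 0.0190), a call that was lost among odd-numbered libraries alone (0.24). Its muscle relative Pacsin3 did not pass (log2 difference -0.14), and Pacsin1, a neuronal form, was at 0.0820 FPKM or less in every library. Dnm2, the dynamin that cuts vesicles from the membrane, rose (0.27, limma adjusted p = 0.0252), a call lost without knockout 3, knockout 4 or control 3 (0.25 to 0.27) and among even-numbered libraries alone (0.15). Flna, filamin A, which ties caveolin-1 to actin, fell to 1127 ± 211 FPKM in knockouts, against 1611 ± 108 FPKM in controls (SD, n = 4 each; log2 difference -0.53, limma adjusted p = 0.0124), and the call was lost with quantile scaling (-0.22). Of the kinases that act on caveolin-1, Fyn fell (-0.43; among even-numbered libraries alone -0.34 and not called), and Src (-0.28) and Abl1 (-0.02) did not pass. Ror1, a receptor-like protein that scaffolds caveolin-1 and cavin-1, did not pass either (log2 difference 0.23).

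**Figure D5:**
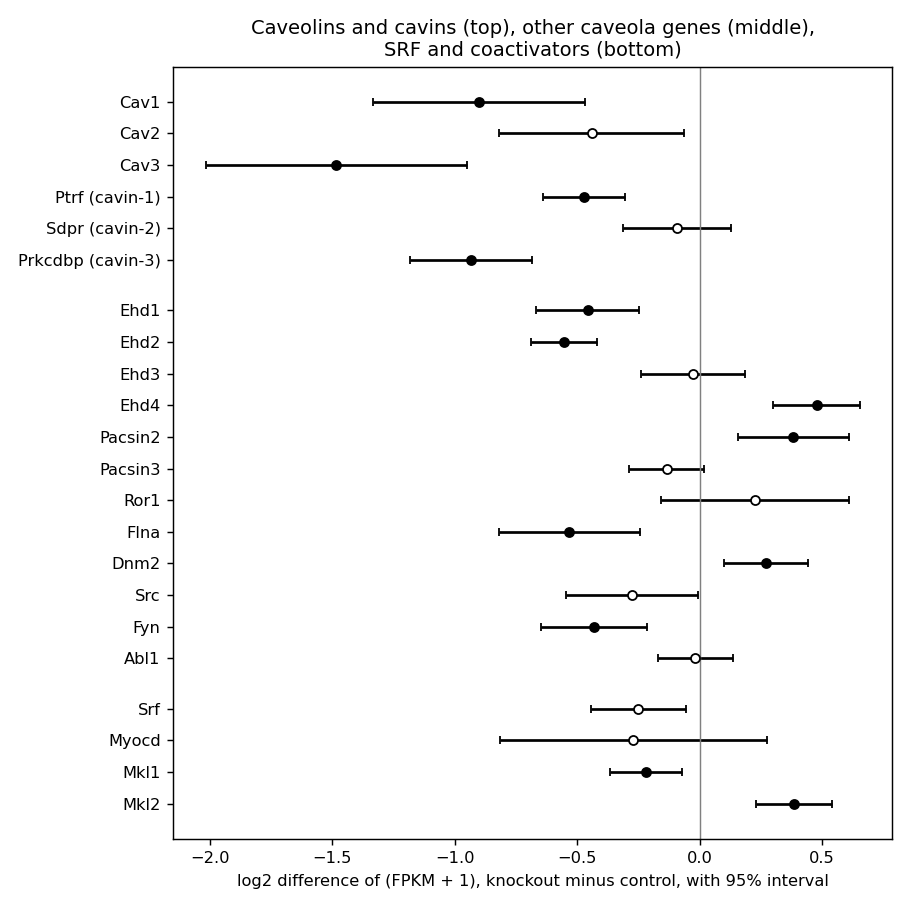
Log2 difference of (FPKM + 1), knockout minus control, with its 95% interval, for the caveolins and cavins, the other caveola genes tested, and serum response factor with its coactivators. Filled points passed limma's adjusted p of 0.05, among them Cav1, Cav3, Ptrf, Prkcdbp and Ehd2 to the left of 0 and Ehd4, Pacsin2, Dnm2 and Mkl2 to the right.

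Serum response factor and its coactivators drive many smooth muscle genes, and caveolin and cavin genes have been placed among their targets. Srf had 33.5 ± 3.75 FPKM in knockouts and 39.9 ± 2.54 FPKM in controls (SD, n = 4 each; log2 difference -0.25, limma adjusted p = 0.0531) and did not pass, though it did in 7 of 19 alternatives, among them both median-of-ratios and quantile scaling (-0.26 and -0.27) and leaving out knockout 2 (-0.31). Mkl1, which encodes MRTF-A, fell (log2 difference -0.22, limma adjusted p = 0.0301), a call lost in 9 of 19 alternatives, among them leaving out any 1 library other than knockout 2 or control 4 (-0.23 to -0.18). Mkl2, which encodes MRTF-B, rose to 9.64 ± 0.778 FPKM in knockouts, against 7.13 ± 0.288 FPKM in controls (SD, n = 4 each; log2 difference 0.39, limma adjusted p = 0.00304), a call lost among odd-numbered libraries alone (0.35). Myocd, myocardin, had 18.8, 22.4, 14.2 and 20.2 FPKM in knockouts 1 to 4, and 27.9, 25.5, 28.1 and 13.0 FPKM in controls 1 to 4. Control 4 was the lowest of all 8 libraries, and the log2 difference of -0.27 did not pass (limma adjusted p = 0.422), though without control 4 it was -0.52 and passed (limma adjusted p = 0.0276).

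Of 20 tested signalling proteins that have been placed at caveolae, 8 fell, 3 rose and 9 did not pass (median log2 difference -0.28). For this list and the next, the shares over all tested genes were 15.0% called lower and 17.1% called higher. The largest fall was that of Aqp1, a water channel of endothelium and smooth muscle, with 61.5 ± 6.91 FPKM in knockouts and 143.6 ± 10.4 FPKM in controls (SD, n = 4 each; log2 difference -1.22, limma adjusted p = 5.14e-05). Nos3, also an endothelial marker, had 7.73 ± 0.754 FPKM in knockouts and 16.7 ± 1.83 FPKM in controls. The clathrin coat, the other main coat of endocytic pits, showed 2 rises and 3 falls among 14 tested genes (median 0.01), with Bin1, a membrane-curving protein, at -0.52 and Cltb, a clathrin light chain, at -0.44. Of the flotillins, membrane scaffold proteins outside caveolae, Flot1 (-0.03) and Flot2 (0.17) did not pass. That the caveolin and cavin genes differed from these lists was not tested.

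The genes whose log2(FPKM + 1) followed each member most closely over the 8 libraries were named by Pearson's r, a description over points that include the genotype difference. For Cav1 they were Tnfrsf11a, the receptor of RANK ligand (r = 0.996), Epb4.1l1, a membrane skeleton protein (0.995), and Dtna, dystrobrevin alpha (0.993), and r was 0.985 to 0.994 after each genotype's mean was taken out. For Ptrf they were Ablim1, an actin-binding LIM protein (0.998), Cdc42bpa, a kinase downstream of Cdc42 (0.995), and Myom1, myomesin (0.995). Prkcdbp was nearest to Rras, a small GTPase (0.996), Inpp4a, a phosphoinositide phosphatase (0.995), and Adam33, a metalloprotease (0.993). Cav3 was nearest to Sepw1, selenoprotein W (0.991), Tshz3, a zinc finger factor (0.989), and Prkcdbp itself (0.989). For Cav2 the nearest were Tubgcp5 (0.974), Nptn (0.973) and Bbs1 (0.971), and for Sdpr Nbeal1 (0.962), Ccdc141 (0.956) and Bcl2l13 (0.951). With the genotype means taken out, r was 0.958 to 0.987 for Ptrf, 0.924 to 0.962 for Prkcdbp and 0.942 to 0.966 for Cav3. It was 0.948 to 0.960 for Cav2 and 0.951 to 0.957 for Sdpr. These genes were picked as the highest of all tested genes, so their r is high by selection.

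Tsc1 itself had 2.99, 3.58, 3.37 and 3.71 FPKM in knockouts 1 to 4, and 4.03, 4.82, 4.95 and 6.32 FPKM in controls 1 to 4 (log2 difference -0.44, limma adjusted p = 0.0190), a value over the whole gene that counts cells without Cre too. Depth relative to control 1, read from the smallest steps of low FPKM, ran from 0.763 to 1.33 in knockouts and from 1 to 2.45 in controls, and the absolute depth is unknown. The FPKM columns summed to between 453564 and 467703 in knockouts and between 483615 and 937271 in controls. Without small RNA rows, which added most to controls 1 to 3, the sums were 451961 to 466783 in knockouts and 481940 to 490054 in controls, still without overlap. The number of genes at 1 FPKM or more per library ran from 11867 to 12012 in knockouts and from 11928 to 12083 in controls.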

How the data were processed

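The deposited values are FPKM per gene symbol, 1 column per library, used as the authors made them. The submitters' processing notes name TopHat2, Cufflinks, Cuffdiff and mm10 but no version or role. The annotation, the strand setting and how libraries were scaled were not given in the sources used here. Per the labels' protocols, polyadenylated RNA was selected from 500 ng of RNA whose RIN, an integrity score, was above 7. Reads shared by similar or overlapping genes cannot be separated in such values.

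FPKM were raised by 1 and put on a log2 scale, on which low genes appear to change less than they do. Every one of the 12107 genes averaging 1 FPKM or more was fitted in limma 3.58.1 (R 4.3.3) by lmFit and by eBayes with its trend option. Genotype was the only term, tests were two-sided, and p-values were adjusted over all of these genes. SE and 95% intervals come from the moderated variance, and the code was tested on simulated data. Ratios and motif matches were computed with Python 3.11.15. Gene positions are from GENCODE M21 (GRCm38, the same build as mm10), and promoter sequences from RefSeq. The genes and lists were chosen with earlier results of these data known. The genes named are the caveolins and cavins, all of the caveola accessory and serum response factor lists, the 2 called genes with the largest log2 difference of each other list, Tsc1, and the 3 genes with the highest Pearson's r with each caveolin or cavin. The other lists are caveola-associated signalling, clathrin coat, flotillins, and smooth muscle, endothelial, fat cell, striated muscle, fibroblast and macrophage markers. Of the 8 macrophage markers 7 were matched by symbol. Alternatives were other pseudocounts, filters and scalings, library weights, a replicate block, odd or even number as a covariate or as separate sets, and leaving out each library.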

Additional observations from a re-analysis of the deposited data

Results flagged for a closer look

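The genotype difference of Cav1 differed between odd- and even-numbered libraries by -0.85 on the log2 scale (limma interaction, adjusted p = 0.0217), and it was negative in both sets. The labels do not make this division, which was chosen because earlier results of these same data showed it, so the p is no independent evidence of it. In the groups of 4, control 4 stood apart from the other controls for Ehd3 (10.04 FPKM, below them) and for Pacsin2 (71.4 FPKM, above them). These were 2 of 54 groups checked with Dixon's test, and chance gives about 1 in 20.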

How the results depend on the processing

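Cav1, Cav3, Ptrf and Prkcdbp were lower and called in each of the 19 alternatives run, with log2 differences of -1.33 to -0.47 for Cav1, -1.87 to -1.10 for Cav3, -0.64 to -0.28 for Ptrf and -1.11 to -0.75 for Prkcdbp. Cav2 was also called with library weights (-0.48), odd or even number as a covariate (-0.44) and odd-numbered libraries alone (-0.66), and ran from -0.59 to -0.34 with 1 library left out. Sdpr was called in none of them, ran from -0.14 to -0.03 with 1 library left out, and was 0.084 among even-numbered libraries; the causes of these changes were not tested. Tsc1 lost its call among odd-numbered (-0.39) and even-numbered (-0.49) libraries alone and ran from -0.52 to -0.34 with 1 library left out.

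Same-numbered knockout and control libraries deviated together only weakly (r = 0.0656 to 0.173 across genes), and 1 of 4 knockouts correlated best with its own number, so the numbers were not taken to pair the samples. Libraries that were both odd or both even correlated positively between genotypes in all 8 pairs (0.016 to 0.173). The others correlated negatively in all 8 (-0.193 to -0.0547). Deviations from a genotype's mean cancel out over its libraries, so positive pairs push others negative, and the negative pairs are not a separate result. The fit with genotype alone leaves this odd and even division out. With parity of the replicate number as a covariate 2636 genes were higher and 2353 lower, and Srf (-0.25), Ror1 (0.23) and Src (-0.28) were called. With the replicate block, Cav2 was called (-0.44, limma adjusted p = 0.0242), and so were Srf, Ror1 and Src with the same differences, and 2349 genes were higher and 2122 lower.

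The Cav2 to Cav1 ratio differed by 0.66 among odd-numbered and 0.25 among even-numbered libraries (0.37 to 0.53 with 1 library left out), and Ptrf to Cav1 by 0.70 and 0.17 (0.32 to 0.53). With the replicate block, an exact sign-flip test over 4 pairs gave p = 0.125 for each of the 4 ratios, the smallest it can give, so none could pass. Direction changed for genes that were not called: Ehd3 was 0.046 when scaled by the sum without small RNA and 0.15 among even-numbered libraries (-0.088 to 0.051 with 1 left out), Abl1 was 0.060 and 0.023 in the same settings (-0.059 to 0.016 with 1 left out), and Myocd was 0.21 among even-numbered libraries. With scaling by that sum 68.7% of called genes were higher (2956 against 1347 lower), against 53.3% as deposited (2074 and 1819). With 2 knockouts and 2 controls, the odd and even sets leave little precision, and genes near 1 FPKM are limited by an unknown depth.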
